A study of Mus musculus with 9 samples.

Results

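The 9 neuronal cytoskeleton and adhesion genes described here are Nefl, Nefm, Nes, Tubb3, Map2, Dcx, Stmn2, Gap43 and Ncam1. They were chosen by name, all 9 were measured, and they are 9 of the 18193 genes tested on the arrays. Each is read from the probe set (the group of short probes for one transcript) that names no other gene and has the highest mean over all arrays. The genes had 25 such probe sets in all, and the others served as a check.

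RNA was hybridised to Affymetrix mouse genome arrays, 3 in each of 3 groups, which the labels call biological replicates. The first group was embryonic stem cells (ESCs), which stand for the naive state of pluripotency, grown in N2B27, a serum-free medium, on gelatine with 1000 U/ml LIF and 250 ng/ml Wnt3a. The second was epiblast stem cells (EpiSCs), the primed state found after implantation, given IWP2, an inhibitor of the enzyme Porcupine that blocks the secretion of Wnt proteins. The third was EpiSCs given vehicle. Both EpiSC groups grew in N2B27 with 20 ng/ml of Activin A plus 12 ng/ml of bFGF on plates coated with gelatine and serum. All cells are labelled C57BL/6, and neither the origin nor the number of the lines is given in the sources used here. Cell type, medium and coating changed together, so their parts in a difference between ESCs and EpiSCs cannot be told apart. The concentration and duration of IWP2 are likewise not given, and the labels mention Wnt3a added after IWP2 without tying it to particular EpiSC arrays.

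A neuron keeps its shape with microtubules, which carry transport along axons and dendrites, and with neurofilaments, which set the width of the axon. Proteins of the growth cone steer the extending axon, and adhesion molecules of the immunoglobulin class hold neurites to each other and to their substrate. Several of these genes are used as markers of neurons (Tubb3, Dcx, Map2) or of neural progenitors (Nes), but transcripts of some are also known from cells that are not neural.

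Levels are log2 signals as deposited, where 1 unit is a factor of 2 and levels of different genes cannot be compared. The lower quartile of all values was 3.72, and signals near it lie at the floor of the array. Array medians were 5.22 to 5.26, and arrays of 1 group correlated at 0.997 to 0.998 over all probe sets. The difference between the 3' and 5' probe sets of the actin control, a sign of RNA quality, was 0.64 to 0.66 in ESCs, 0.64 to 0.69 in IWP2 EpiSCs and 0.53 to 0.59 in vehicle EpiSCs. It was lower on every vehicle array, in the same order as several values below, and its part in them was not tested. No scan date was used, and batches were therefore not examined. The number of arrays limits the precision, and p-values set each difference against the spread between arrays within the groups. Beyond the label of biological replicates, it is not given whether the 9 arrays come from separate cultures.

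The labelled cell types matched their markers. The 6 naive markers (Zfp42, Esrrb, Klf4, Tbx3, Nr0b1 and Tcl1) averaged 10.97 to 11.01 log2 on ESC arrays, against 3.601 to 3.734 on IWP2 and 3.63 to 3.77 on vehicle EpiSC arrays. The 6 primed markers (Fgf5, Otx2, Pou3f1, Sox3, Dnmt3b and Krt18) averaged 6.40 to 6.43 in ESCs, 9.88 to 9.93 in IWP2 EpiSCs and 10.76 to 10.83 in vehicle EpiSCs.

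The 9 genes did not move as one block. Against vehicle EpiSCs, ESCs had higher Nefm, Stmn2, Ncam1, Tubb3 and Nefl and lower Nes and Map2. With IWP2, Ncam1, Tubb3, Map2 and Nefl were higher than with vehicle and Stmn2 was lower. The largest group difference was 4.97 log2 units, for Nefm, and the smallest was 0.04, for Nefl between ESCs and IWP2 EpiSCs. Those of Dcx, which stayed at the array floor, were 0.11 and less in size.

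**Figure D1:**
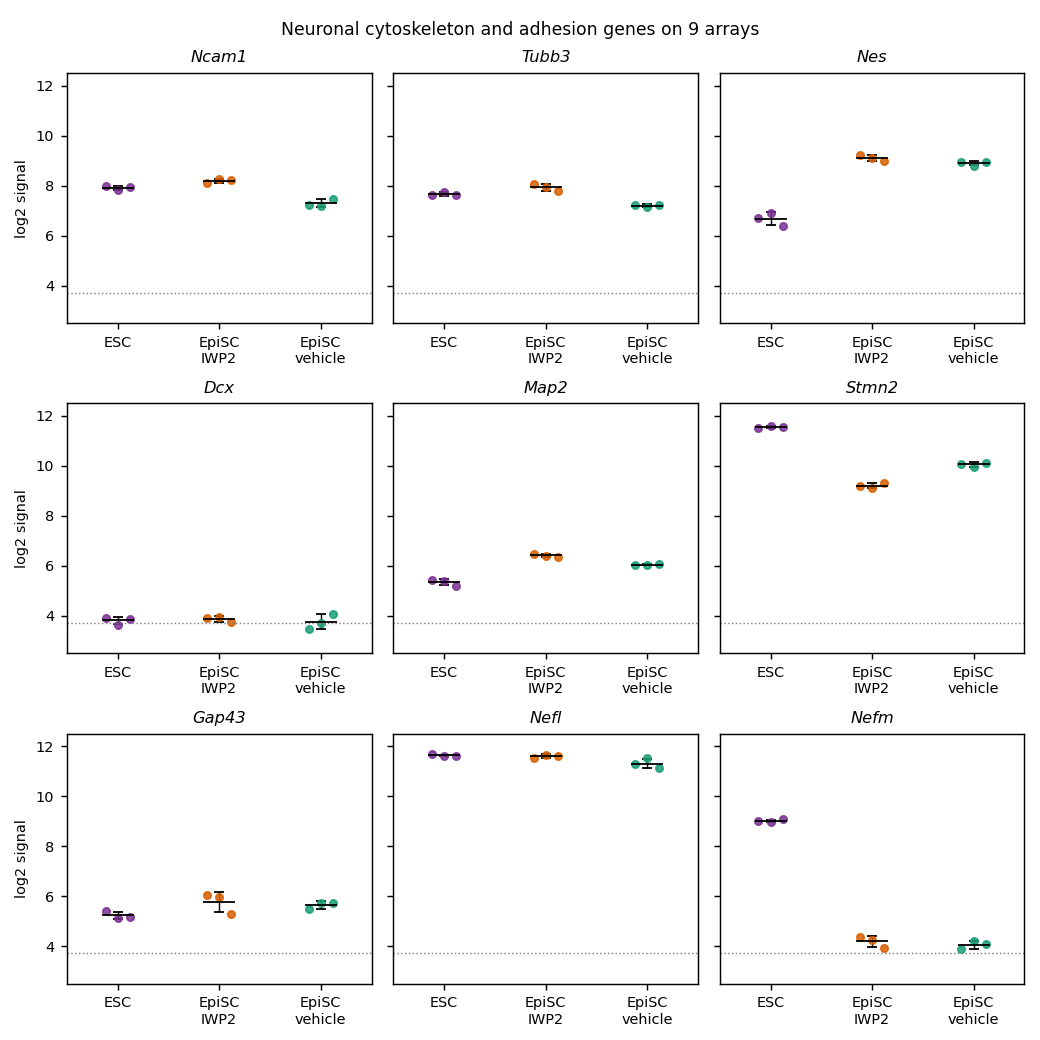
Log2 signal of the 9 genes on each array (points), with the group mean (line) and SD (bars) of 3 arrays, for ESCs, IWP2 EpiSCs and vehicle EpiSCs. The dotted line is the lower quartile of all values, 3.72. Nefm stands at 9.02 in ESCs and near the line in both EpiSC groups, and Dcx is near the line in all groups.

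A gene is called higher or lower where limma, fitted to all genes and all 9 arrays, gave a Benjamini-Hochberg adjusted p under 0.05. For ESC minus vehicle, 5 of the 9 genes were higher and 2 lower, where 38.7% of all genes were called higher and 27.9% lower. For ESC minus IWP2, 2 were higher and 5 lower, where 35.2% of all genes were higher and 26.9% lower. For IWP2 minus vehicle, 4 were higher and 1 lower, against backgrounds of 16.6% higher and 16.8% lower. The median differences of the 9 genes were 0.33, -0.28 and 0.21 in these 3 comparisons, and those of all genes 0.12, 0.10 and 0.03. Read from the probe sets used, no member changed by at least 2-fold with IWP2. Of all 18193 genes, 164 were called higher and 512 lower at that size with IWP2. A second Ncam1 probe set rose by 1.07, which is 2.10-fold (limma adjusted p = 0.00015). From the probe sets used, 2 members were higher and 1 lower by at least 2-fold in ESCs than in vehicle EpiSCs. Of all genes 1249 were called higher and 1752 lower at that size. Against IWP2 EpiSCs 2 members were higher and 2 lower, and of all genes 1432 were higher and 1711 lower. Any pair of these comparisons shares the arrays of 1 group, so they are not independent.

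**Figure D2:**
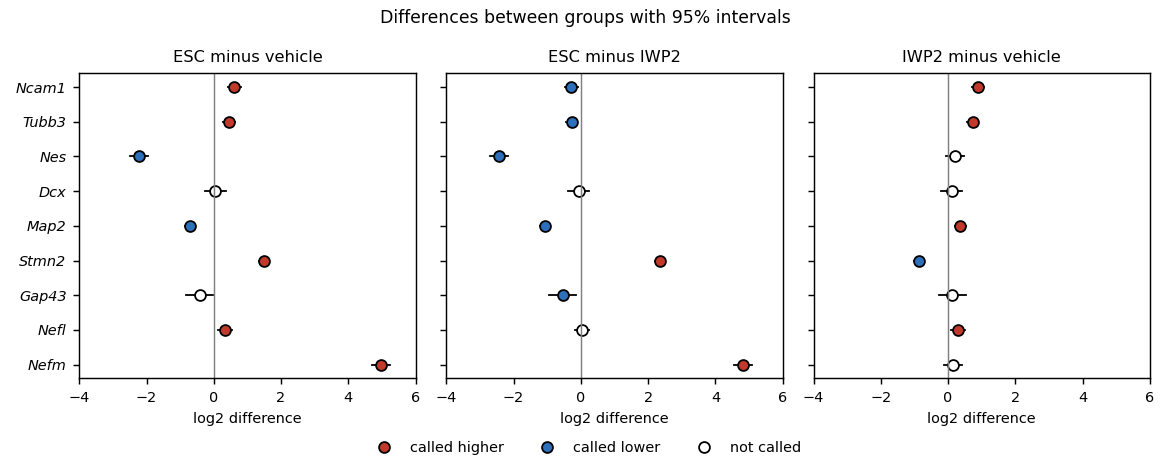
Difference of the group means (log2, points) with its 95% interval (bars) for the 9 genes in the comparisons ESC minus vehicle, ESC minus IWP2 and IWP2 minus vehicle. Red marks genes called higher, blue those called lower and white those not called; Nefm lies at 4.97 and 4.83 in the comparisons with ESCs, and Nes at -2.23 and -2.44.

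In both comparisons with ESCs, the neurofilament gene Nefm had the largest difference of the 9 members. Nefm encodes the medium subunit, which joins the light subunit in the filament of the axon. Its levels were 9.01, 8.98 and 9.07 in ESCs, 4.39, 4.25 and 3.94 in IWP2 EpiSCs and 3.87, 4.20 and 4.07 in vehicle EpiSCs. All ESC arrays were thus far above all EpiSC arrays, which overlapped each other near the floor. The ESC minus vehicle difference was 4.97 ± 0.117 (SE, adjusted p = 2.25e-10), which is 31.4-fold, and the ESC minus IWP2 difference was 4.83 ± 0.117 (adjusted p = 2.72e-10). Since the EpiSC values lie near the floor, these differences are better read as lower limits of the size. Compressing low signals by adding 32 to each linear value gave 3.50 and 3.45. Between the EpiSC groups Nefm was not called (0.15 ± 0.117, adjusted p = 0.385, interval -0.12 to 0.41). Nefm has 1 probe set, so no second one could be set beside it. In such bulk RNA a higher share of cells with a transcript and more RNA per cell cannot be told apart, here and for every gene below.

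Nefl encodes the light subunit, on which the other neurofilament proteins assemble. It was at 11.67, 11.63 and 11.62 in ESCs, 11.52, 11.66 and 11.62 in IWP2 EpiSCs and 11.28, 11.51 and 11.12 in vehicle EpiSCs. ESC and IWP2 arrays overlapped at a high signal and all vehicle arrays lay below both. The ESC minus vehicle difference was 0.33 ± 0.091 (adjusted p = 0.00914), the IWP2 minus vehicle difference 0.29 ± 0.091 (adjusted p = 0.0325), and ESC minus IWP2 was not called (0.04 ± 0.091, adjusted p = 0.731, interval -0.17 to 0.24). The call with IWP2 ended without vehicle replicate 1 or 3 or IWP2 replicate 2 or 3 (adjusted p = 0.0867, 0.0957, 0.101 and 0.0881). It also ended in a fit of the 6 EpiSC arrays alone (adjusted p = 0.0554). A second Nefl probe set gave 0.35, 0.55 and -0.20 for ESC minus vehicle, IWP2 minus vehicle and ESC minus IWP2, with the first 2 called. Nefl and Nefm lie on chromosome 14 with 0 protein-coding genes between them in the RefSeq annotation of the mouse assembly GRCm38.p6. The pair of neighbours therefore differed in pattern: Nefl was bright in all 3 groups, whereas Nefm was near the floor in both EpiSC groups.

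Nes encodes nestin, the intermediate filament protein of neural progenitors. Its levels were 6.72, 6.91 and 6.39 in ESCs, 9.23, 9.09 and 9.002 in IWP2 EpiSCs and 8.95, 8.81 and 8.94 in vehicle EpiSCs. Every ESC array was below every EpiSC array by more than 1 log2 unit. Nes was lower in ESCs than in vehicle EpiSCs by 4.68-fold (-2.23 ± 0.119, adjusted p = 8.77e-08) and lower than in IWP2 EpiSCs by 5.41-fold (-2.44 ± 0.119, adjusted p = 4.25e-08). The other 2 probe sets gave -2.87 and -1.75 against vehicle and -3.13 and -1.82 against IWP2, all called. With IWP2 the arrays lay just above those with vehicle, and the difference was not called (0.21 ± 0.119, adjusted p = 0.214, interval -0.06 to 0.48).

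Promoter windows, from 250 bases before to 50 after the start, were taken from RefSeq (GRCm38.p6), and 4 of the 9 genes matched with 5 windows. That of Nes is at chr3:87970843-87971142 on the plus strand. It is printed, like those of Tubb3 and Map2 further on, because these 3 genes shared some directions. Nes and Map2 were lower in ESCs, and Tubb3 and Map2 were higher with IWP2. Other directions were not shared: Tubb3 was higher in ESCs than in vehicle EpiSCs, and Nes was not called with IWP2. Capitals mark the GC box GGGCGG on either strand.
Nes promoter: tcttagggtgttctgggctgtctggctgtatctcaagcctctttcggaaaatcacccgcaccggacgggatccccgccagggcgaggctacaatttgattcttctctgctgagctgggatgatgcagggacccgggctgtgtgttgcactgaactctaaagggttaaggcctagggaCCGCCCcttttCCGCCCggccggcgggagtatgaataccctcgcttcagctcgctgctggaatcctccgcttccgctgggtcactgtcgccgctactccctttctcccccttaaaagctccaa
The Nes window holds 2 GC boxes and has 58.7% G and C, against a median of 52.7% over all windows. Of all 32851 windows 35.7% hold a GC box. The searches, on both strands and with overlaps counted, also covered the E-box CANNTG, the Sox cores ACAAAG and ACAATG, the TATA box TATAAA, and the left part TCAGCACC and right part GGACAG of the element bound by the repressor REST. None of these letters was found in the Nes window. The E-box, which 72.3% of all windows hold, was in none of the 5 windows. A match is a description of letters and not a measured binding site.

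Among the microtubule genes, Stmn2 encodes stathmin-2 (SCG10), a protein of growing axons that binds tubulin and promotes microtubule turnover. It was at 11.53, 11.59 and 11.54 in ESCs, 9.21, 9.10 and 9.30 in IWP2 EpiSCs and 10.10, 9.96 and 10.13 in vehicle EpiSCs. The 3 groups did not overlap, and the order was ESCs, then vehicle EpiSCs, then IWP2 EpiSCs. ESCs were above vehicle EpiSCs by 2.81-fold (1.49 ± 0.069, adjusted p = 3.03e-08) and above IWP2 EpiSCs by 5.09-fold (2.35 ± 0.069, adjusted p = 1.05e-09). Stmn2 was the member that fell with IWP2, by 0.86 ± 0.069 (adjusted p = 1.23e-05), or 1.81-fold. Its second probe set gave 1.28, 2.00 and -0.73 for ESC minus vehicle, ESC minus IWP2 and IWP2 minus vehicle, all called.

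Tubb3 encodes the class III beta-tubulin of neurons, the antigen of the antibody TuJ1. Its levels were 7.62, 7.75 and 7.61 in ESCs, 8.05, 7.97 and 7.79 in IWP2 EpiSCs and 7.25, 7.16 and 7.22 in vehicle EpiSCs. No 2 groups overlapped, and the vehicle arrays were the lowest. Tubb3 rose with IWP2 by 0.73 ± 0.075 (adjusted p = 6.2e-05, 1.66-fold) and was higher in ESCs than in vehicle EpiSCs by 0.45 ± 0.075 (adjusted p = 0.000434). ESCs were below IWP2 EpiSCs by a smaller amount (-0.28 ± 0.075, adjusted p = 0.00892), a call that ended when quantile normalization was repeated (-0.17, adjusted p = 0.0671). Tubb3 has 1 probe set. Its promoter window lies at chr8:123411303-123411602 on the plus strand.
Tubb3 promoter: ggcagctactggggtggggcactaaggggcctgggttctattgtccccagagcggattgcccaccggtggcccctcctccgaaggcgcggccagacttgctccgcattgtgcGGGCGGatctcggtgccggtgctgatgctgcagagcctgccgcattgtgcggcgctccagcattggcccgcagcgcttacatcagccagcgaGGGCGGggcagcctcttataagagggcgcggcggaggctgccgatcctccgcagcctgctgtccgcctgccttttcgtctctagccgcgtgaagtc
The Tubb3 window holds 2 GC boxes and 67.3% G and C. It also holds 2 copies of ACAATG, which 12.6% of all windows hold, 1 copy of TCAGCACC and 1 of GGACAG. Of all windows 1.65% hold the first and 22.2% the second of these parts of the REST element. In the Tubb3 window they lie at bases -121 and 13 from the start, so they are not side by side.

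Map2 encodes a protein that binds and stabilises microtubules in dendrites. It was at 5.45, 5.39 and 5.21 in ESCs, 6.49, 6.40 and 6.37 in IWP2 EpiSCs and 6.04, 6.03 and 6.08 in vehicle EpiSCs. The groups did not overlap, with IWP2 EpiSCs highest and ESCs lowest. Map2 was lower in ESCs than in vehicle EpiSCs (-0.70 ± 0.071, adjusted p = 1.08e-05) and than in IWP2 EpiSCs (-1.07 ± 0.071, adjusted p = 3.95e-07), and it rose with IWP2 by 0.37 ± 0.071 (adjusted p = 0.00285). These values rest on 1 of 4 probe sets. The other 3 had group means of 3.11 to 4.04, near the floor, and none was called. The mean of all 4 gave -0.11 for ESC minus vehicle, which was not called (adjusted p = 0.0834). Its promoter window is at chr1:66175079-66175378 on the plus strand.
Map2 promoter: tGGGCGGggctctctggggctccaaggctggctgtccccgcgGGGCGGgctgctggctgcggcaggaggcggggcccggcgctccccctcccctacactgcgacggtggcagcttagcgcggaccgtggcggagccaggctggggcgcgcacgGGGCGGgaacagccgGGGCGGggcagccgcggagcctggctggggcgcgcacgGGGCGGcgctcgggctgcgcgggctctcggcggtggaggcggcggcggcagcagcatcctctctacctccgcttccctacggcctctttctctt
The Map2 window holds 5 GC boxes, 1 copy of GGACAG and 77.7% G and C.

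Dcx encodes doublecortin, a microtubule protein of migrating young neurons. Its levels were 3.93, 3.64 and 3.89 in ESCs, 3.92, 3.97 and 3.75 in IWP2 EpiSCs and 3.49, 3.74 and 4.08 in vehicle EpiSCs. All groups overlapped at the floor of the array. No difference was called (0.05 ± 0.140 for ESC minus vehicle, -0.06 ± 0.140 for ESC minus IWP2 and 0.11 ± 0.140 for IWP2 minus vehicle, adjusted p = 0.761, 0.728 and 0.592). Differences at this signal are compressed, so a change of a rare transcript could be missed. Of the other 3 probe sets, all with group means of 3.26 to 3.82, 2 were called higher in ESCs than in vehicle EpiSCs (0.37 and 0.27). Against IWP2 EpiSCs, 1 was called higher (0.28) and 1 lower (-0.36) in ESCs, and no direction can be given for Dcx.

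Gap43, the gene for a membrane protein of the growth cone, was at 5.39, 5.11 and 5.18 in ESCs, 6.04, 5.97 and 5.29 in IWP2 EpiSCs and 5.47, 5.72 and 5.73 in vehicle EpiSCs. ESC arrays lay below the vehicle arrays, while IWP2 replicate 3 fell within the range of the ESC arrays and apart from the other IWP2 arrays. ESCs were lower than IWP2 EpiSCs (-0.54 ± 0.179, adjusted p = 0.0248), a call that ended without IWP2 replicate 1 (-0.40, adjusted p = 0.0958) or 2 (adjusted p = 0.0886) and without ESC replicate 2 (adjusted p = 0.0714) or 3 (adjusted p = 0.0609). ESC minus vehicle was not called at -0.41 ± 0.179 (adjusted p = 0.0643). Without IWP2 replicate 3 it was called (adjusted p = 0.00496), as it was in a fit of only the 6 arrays compared (adjusted p = 0.00881), with trend and robust variances (adjusted p = 0.033) and after cyclic loess (adjusted p = 0.0494). IWP2 minus vehicle was 0.12 ± 0.179 (adjusted p = 0.651), and 0.36 and called without IWP2 replicate 3 (adjusted p = 0.0381). Gap43 has 1 probe set.

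Ncam1 encodes the neural cell adhesion molecule, which binds itself on neighbouring cells. Its levels were 7.97, 7.83 and 7.94 in ESCs, 8.10, 8.26 and 8.22 in IWP2 EpiSCs and 7.24, 7.19 and 7.47 in vehicle EpiSCs. All ESC and IWP2 arrays were above all vehicle arrays, and the IWP2 arrays were above the ESC arrays. Ncam1 rose with IWP2 by 0.89 ± 0.083 (adjusted p = 3.18e-05, 1.85-fold) and was higher in ESCs than in vehicle EpiSCs by 0.61 ± 0.083 (adjusted p = 0.000106). Of the 6 other probe sets, 3 also rose with IWP2, by 0.57 to 1.07, and 4 were higher in ESCs than in vehicle EpiSCs, by 0.42 to 1.49. The order of ESCs and IWP2 EpiSCs depended on the probe set. The brightest gave -0.28 ± 0.083 for ESC minus IWP2 (adjusted p = 0.0141), 2 others were called higher in ESCs (0.51 and 1.22), and the mean of all 7 was 0.18 (adjusted p = 0.0194). The call of the brightest also ended without IWP2 replicate 2 (adjusted p = 0.0524) or ESC replicate 2 (adjusted p = 0.0523) and with repeated quantile normalization (adjusted p = 0.0692), so no direction is given. Which Ncam1 isoforms the 7 probe sets read was not examined.

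**Figure D3:**
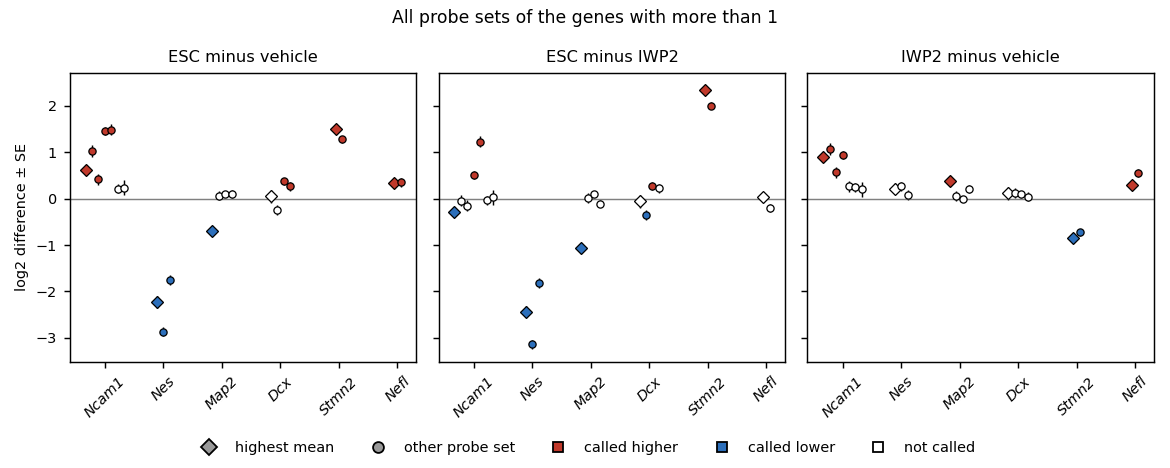
Difference of the group means (log2, ± SE) for every probe set of the 6 genes with more than 1, in the 3 comparisons. Diamonds are the probe sets used and circles the others; colours mark those called higher, lower or not called. The Nes, Stmn2 and Nefl probe sets share a direction in ESC minus vehicle, 2 of 6 other Ncam1 probe sets oppose the diamond in ESC minus IWP2, and the 3 other Map2 probe sets lie near 0.

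Related genes were read from lists named for what their members do, without the 9 genes. The lists were chosen with earlier results of these data known. Their shares therefore describe the listed genes and are no independent test. Of 183 listed genes 177 were measured, and the shares of a list called are given beside those of all genes. With IWP2, 12 of 21 microtubule and tubulin genes of neurons rose (57.1%, against 16.6% of all genes) and 1 fell (4.76%, against 16.8%), with a median of 0.43, against 0.03 over all genes. The stathmin gene Stmn3 rose by 0.93 ± 0.058 (adjusted p = 1.99e-06), read from a probe set whose suffix marks probes shared with other transcripts, and Map6, for a protein that keeps microtubules stable in the cold, by 0.96 ± 0.090 (adjusted p = 3.19e-05). The gene that fell was Dclk1, a doublecortin relative (-0.28 ± 0.093, adjusted p = 0.0403). Stmn3 thus moved opposite to Stmn2 with IWP2. In ESCs, 7 were higher and 11 lower than in vehicle EpiSCs (33.3% and 52.4%, against 38.7% and 27.9% of all genes, median -0.28). Against IWP2 EpiSCs 4 were higher and 13 lower (19% and 61.9%, against 35.2% and 26.9% of all genes, median -0.82). The beta-tubulin genes Tubb2a (2.76 and 2.14, from a shared probe set) and Tubb2b (1.42 and 1.04) were higher in ESCs than in vehicle and IWP2 EpiSCs. Dclk1 (-3.72 and -3.43) and Dpysl2, which encodes the tubulin-binding protein CRMP2 (-2.55 and -3.13), were lower, Dclk1 with a mean of 3.61 at the floor in ESCs.

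Of 11 other intermediate filament genes, 5 were higher and 3 lower in ESCs than in vehicle EpiSCs (45.5% and 27.3%, near the 38.7% and 27.9% of all genes, median 0.21). Against IWP2 EpiSCs 6 were higher and 3 lower (54.5% and 27.3%, against 35.2% and 26.9% of all genes, median 0.27). Nefh, the gene for the heavy neurofilament subunit, was at 7.72, 7.60 and 7.40 in ESCs, 5.50, 5.60 and 5.49 in IWP2 EpiSCs and 5.91, 6.22 and 5.69 in vehicle EpiSCs. Like Nefm it was higher in ESCs, by 1.64 ± 0.126 against vehicle (adjusted p = 1.43e-06) and 2.05 ± 0.126 against IWP2 (adjusted p = 2.38e-07). The nuclear lamin gene Lmnb1 was higher by 0.51 and 0.44, and Synm, for synemin, which binds other filaments, was lower (-0.83 and -0.85). With IWP2 1 gene rose and 3 fell (9.09% and 27.3%, against 16.6% and 16.8% of all genes, median 0.02). The rise was that of Prph, for the peripherin of peripheral neurons (0.53 ± 0.114, adjusted p = 0.00545), and the falls were those of Lmna (-0.66), Ina (-0.41), for the neuronal filament protein alpha-internexin, and Nefh (-0.41 ± 0.126, adjusted p = 0.0306).

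The growth cone and membrane-cortex list, read beside Gap43, had 4 genes higher and 7 lower of 12 in ESCs than in vehicle EpiSCs (33.3% and 58.3%, against 38.7% and 27.9% of all genes, median -0.30). Against IWP2 EpiSCs 3 were higher and 6 lower (25% and 50%, against 35.2% and 26.9%, median -0.21). Dbn1, for the actin-binding protein drebrin (-3.97 and -3.65), and Basp1, a membrane protein often grouped with Gap43 (-1.57 and -1.93), were lower. Enah, an actin regulator, was higher (0.82 and 0.77). With IWP2 3 rose (25%, against 16.6% of all genes), among them Basp1 (0.36) and Rufy3 (0.48), and Ablim1 fell (-1.11 ± 0.095, adjusted p = 1.8e-05), with a median of -0.02.

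Of 20 neural adhesion molecules other than Ncam1, 4 rose and 5 fell with IWP2 (20% and 25%, near the 16.6% and 16.8% of all genes, median 0.04). Nfasc, for neurofascin of the axon's initial segment, rose by 0.96 ± 0.092 (adjusted p = 4.07e-05). Alcam fell by 3.31 ± 0.145 (adjusted p = 1.62e-07), and Cdh2, for N-cadherin, fell by 1.42 ± 0.063 (adjusted p = 1.77e-07). In ESCs 4 were higher and 9 lower than in vehicle EpiSCs (20% and 45%, against 38.7% and 27.9% of all genes, median -0.08), with Nrcam (-4.50) and Cdh2 (-3.62) lower. Against IWP2 EpiSCs 4 were higher and 7 lower (20% and 35%, against 35.2% and 26.9%, median 0.06). Nrcam in ESCs and Alcam with IWP2 were at the floor, with means of 3.68 and 3.37.

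Genes for polysialylation and for partners of Ncam1 were lower in ESCs for 8 of 9 against vehicle EpiSCs (88.9%, against 27.9% of all genes, median -0.83) and for 7 of 9 against IWP2 EpiSCs (77.8%, against 26.9%, median -0.67), with 0 higher in limma's fit in both, also at an unadjusted p under 0.05. St8sia4, one of the enzymes that add polysialic acid to the Ncam1 protein, was at 3.49, 3.56 and 3.41 in ESCs, 7.06, 6.95 and 7.42 in IWP2 EpiSCs and 6.16, 6.30 and 6.52 in vehicle EpiSCs. The ESC arrays were at the floor and the IWP2 arrays above the vehicle arrays. The differences were -2.84 ± 0.126 for ESC minus vehicle (adjusted p = 2.19e-08), -3.65 ± 0.126 for ESC minus IWP2 (adjusted p = 3.17e-09) and 0.81 ± 0.126 for IWP2 minus vehicle (adjusted p = 0.000869). St8sia2, the other main polysialyltransferase gene, rose with IWP2 by 0.43 ± 0.095 (adjusted p = 0.00692). Fyn, a kinase downstream of Ncam1, was lower in ESCs (-1.27 and -1.32). With IWP2, 4 of 9 rose and 1 fell (44.4% and 11.1%, against 16.6% and 16.8% of all genes, median 0.20), the fall being that of Gfra1, for a GDNF co-receptor (-1.48). Ncam1, St8sia2 and St8sia4 rose together with IWP2. In ESCs, where Ncam1 was above its vehicle level, St8sia4 was at the floor and St8sia2 was not. St8sia2 averaged 5.72 in ESCs, against 5.96 in vehicle EpiSCs. St8sia3, also in the list, averaged 5.27 in ESCs and was not called with IWP2 (0.20 ± 0.133, limma adjusted p = 0.293).

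**Figure D4:**
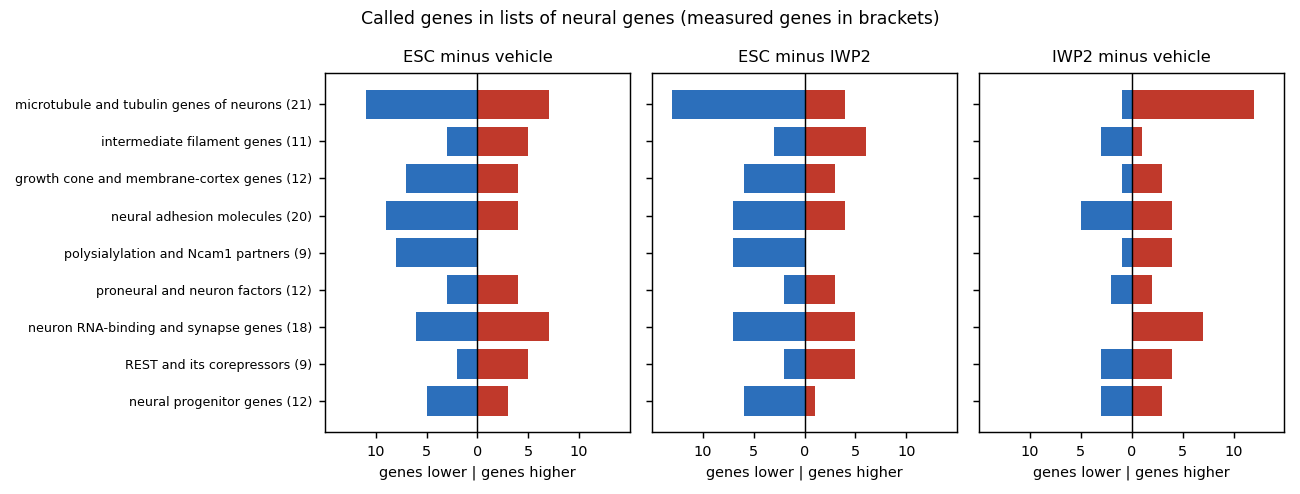
Number of genes called lower (blue, left) and higher (red, right) in each list of neural genes in the 3 comparisons, with the number measured in brackets. With IWP2, 12 of 21 microtubule genes were higher; in ESCs, 8 of 9 polysialylation and Ncam1 partner genes were lower than in vehicle EpiSCs.

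Genes that mark neurons themselves were read next. The 12 proneural and neuron factors averaged 3.82 to 3.98 in ESCs, 3.91 to 4.05 in IWP2 EpiSCs and 3.94 to 4.0 in vehicle EpiSCs, close to the floor, and 7, 5 and 6 of them had group means below the lower quartile. With IWP2 2 rose, Insm1 (0.93) and Nhlh1 (0.28, at the floor), and 2 fell, Isl1 (-1.19) and Neurod1 (-0.52), with a median of 0.02. Both shares, 16.7%, were near those of all genes. In ESCs 4 were higher and 3 lower than in vehicle EpiSCs (33.3% and 25%, near the 38.7% and 27.9% of all genes, median 0.11). Against IWP2 EpiSCs 3 were higher and 2 lower (25% and 16.7%, against 35.2% and 26.9% of all genes, median 0.12). Insm1 was lower in ESCs than in vehicle EpiSCs (-1.93), and since its ESC mean of 2.78 was at the floor, this is a lower limit of the size. For the neuron RNA-binding and synapse genes, 11 of 18 IWP2 means lay above the median of all probe sets. In vehicle EpiSCs 9 of the 18 did, and in ESCs 7. That median covers all probe sets, while each gene is read from its brightest one. The share of all genes above it is not given here, so these counts have no background. Of these 18, 7 rose and 0 fell with IWP2 in limma's fit (38.9% higher, against 16.6% of all genes, median 0.14), and 8 and 0 at an unadjusted p under 0.05. Among the rises was Sv2a, for a synaptic vesicle protein (1.56 ± 0.142, adjusted p = 2.72e-05). In ESCs 7 were higher and 6 lower than in vehicle EpiSCs (38.9% and 33.3%, near the 38.7% and 27.9% of all genes, median 0.19). Against IWP2 EpiSCs 5 were higher and 7 lower (27.8% and 38.9%, against 35.2% and 26.9% of all genes, median -0.03). Snap25, a SNARE gene of the synapse, was at 3.13 ± 0.390 in ESCs, 7.75 ± 0.101 in IWP2 EpiSCs and 7.001 ± 0.083 in vehicle EpiSCs (SD, n = 3 each), so it was at the floor in ESCs. Of the same list, Scn3a (1.77 and 0.77) and Syn1 (0.67 and 0.54) were higher in ESCs than in vehicle and IWP2 EpiSCs. The vehicle mean of Scn3a, 3.10, was at the floor. ESCs thus had higher Nefm, Nefh, Stmn2, Scn3a and Syn1 and lower Snap25, Nes and Dclk1 than both EpiSC groups.

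Neural progenitor genes, read beside Nes, had 3 rises and 3 falls of 12 with IWP2 (25% each, against 16.6% and 16.8% of all genes, median 0.10). Lix1 rose by 1.16 and Fabp7 fell (-1.71). Nkx2-2 rose by 1.40, a lower limit of the size, since its vehicle mean of 2.89 was at the floor. In ESCs 3 were higher and 5 lower than in vehicle EpiSCs (25% and 41.7%, against 38.7% and 27.9% of all genes, median -0.09), and 1 higher and 6 lower than in IWP2 EpiSCs (8.33% and 50%, against 35.2% and 26.9%, median -0.30). Pou3f1 (-5.22 and -5.01), which also marks primed cells, and Prom1 (-3.34 and -3.93), for the surface protein prominin-1, were lower in ESCs. REST, a repressor that keeps neuronal genes silent in other cells, and its corepressors were well above the floor in all groups. Rest itself was at 10.66, 10.67 and 10.66 in ESCs, 10.24, 10.39 and 10.40 in IWP2 EpiSCs and 9.96, 9.95 and 9.98 in vehicle EpiSCs. It was higher in ESCs than in vehicle EpiSCs (0.70 ± 0.057, adjusted p = 2.33e-06) and rose with IWP2 (0.38 ± 0.057, adjusted p = 0.000702). Of 9 genes in this list 5 were higher and 2 lower in ESCs against either EpiSC group (medians 0.22 against vehicle and 0.29 against IWP2). That is 55.6% higher and 22.2% lower, against 38.7% and 27.9% of all genes in the comparison with vehicle and 35.2% and 26.9% in that with IWP2. With IWP2 4 rose and 3 fell (44.4% and 33.3%, against 16.6% and 16.8% of all genes, median 0.01). Rcor2, a REST corepressor, was higher in ESCs (1.04 and 1.31).

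Genes with patterns most like those of the members were sought by the root mean square difference from each member over the 9 arrays, after each gene's own mean was subtracted. This was done for the 4 members whose group means span at least 1 log2 unit. Nearest to Nefm were Sycp3 (0.135), a gene of the meiotic chromosome axis, Calcoco2 (0.138) and Dnah8 (0.150), a dynein heavy chain gene, all near the floor in EpiSCs. Nearest to Stmn2 were Apoe (0.079), for apolipoprotein E, Fam81a (0.122) and the dynein light chain gene Dynll2 (0.156). Nes lay nearest to Trio (0.117), Tceanc2 (0.121) and Sbsn (0.122), and Map2 to Hip1r (0.055), Fam111a (0.061) and Dhx34 (0.063).

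**Figure D5:**
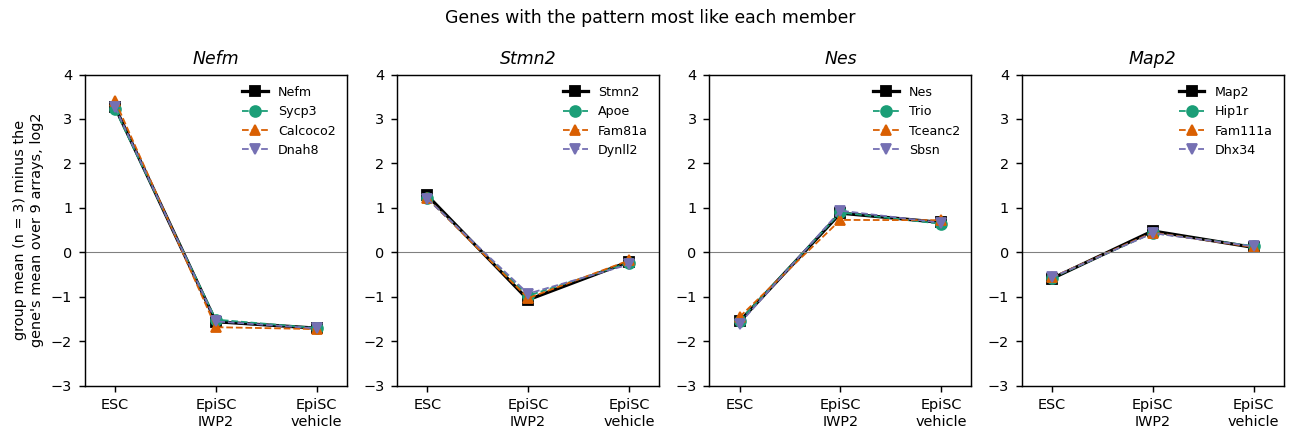
Group means (n = 3) of Nefm, Stmn2, Nes and Map2 (black) and of the 3 genes nearest to each, after subtraction of each gene's mean over the 9 arrays (log2), for ESCs, IWP2 EpiSCs and vehicle EpiSCs. Each member and its neighbours run close together, for example Nefm and Sycp3 with a root mean square difference of 0.135.

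Markers of other cell types that the cultures could hold also differed between the groups, and their part in the differences above was not tested. Summed on the linear scale, the 7 measured glia markers gave 264 to 287 in ESCs, 648 to 693 in IWP2 EpiSCs and 975 to 1001 in vehicle EpiSCs. Of these 7, 2 were higher and 4 lower in ESCs than in vehicle EpiSCs (28.6% and 57.1%, against 38.7% and 27.9% of all genes). With IWP2 0 were higher and 2 lower in limma's fit (0% and 28.6%, against 16.6% and 16.8% of all genes). At an unadjusted p under 0.05, 1 was higher and 3 were lower with IWP2. Olig1 carried the gap between the EpiSC groups: without it the glia sums were 252 to 280 in ESCs, 354 to 374 in IWP2 EpiSCs and 335 to 359 in vehicle EpiSCs. The 8 neural crest markers summed to 442 to 472 in ESCs, 1027 to 1072 in IWP2 EpiSCs and 477 to 539 in vehicle EpiSCs. Of these 8, 3 rose and 0 fell with IWP2 in limma's fit, also at an unadjusted p under 0.05. The shares in limma's fit were 37.5% and 0%, against 16.6% and 16.8% of all genes. Most of the neural crest sum in IWP2 EpiSCs was Ets1, without which the sums were 433 to 460 in ESCs, 352 to 385 in IWP2 EpiSCs and 260 to 293 in vehicle EpiSCs. Foxd3, still in these sums, averaged 7.94 log2 in ESCs, 6.43 in IWP2 EpiSCs and 6.45 in vehicle EpiSCs. In ESCs 5 of the 8 were higher and 2 lower than in vehicle EpiSCs (62.5% and 25%, against 38.7% and 27.9% of all genes). Against IWP2 EpiSCs 2 were higher and 3 lower (25% and 37.5%, against 35.2% and 26.9%). The 9 fibroblast and feeder markers summed to 208 to 214 in ESCs, 401 to 465 in IWP2 EpiSCs and 598 to 826 in vehicle EpiSCs. Of these 9, 2 rose and 4 fell with IWP2 (22.2% and 44.4%, against 16.6% and 16.8% of all genes). The 8 muscle markers summed to 279 to 301 in ESCs, 182 to 187 in IWP2 EpiSCs and 223 to 288 in vehicle EpiSCs. For the 6 endothelium markers the sums were 206 to 221 in ESCs, 94.7 to 99.6 in IWP2 EpiSCs and 95.8 to 119 in vehicle EpiSCs. In ESCs 2 glia, 3 neural crest, 2 fibroblast, 3 muscle and 2 endothelium markers had group means below the lower quartile of all values.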

How the data were processed

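Log2 values of 45101 probe sets on 9 arrays were used as the authors deposited them. They were made with RMA, and limma was also used, per the submitters' processing notes, which give no versions. RMA equalises the arrays' distributions, which hides any change of RNA amount per cell. Names came from the platform annotation, and of the 34945 probe sets with 1 gene symbol (array controls left out) the one with the highest mean represented each gene, for 18193 genes. Group means of all 9 arrays were fitted by limma 3.58.1 under R 4.3.3, with moderated variances (6 residual degrees of freedom, raised to 9.58). P-values are two-sided and Benjamini-Hochberg adjusted across all genes. Errors of differences are standard errors, and intervals are 95%. Other probe sets were read from a fit of all single-symbol probe sets. The fit was tested on simulated data.

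The members and lists were chosen with earlier results of these data known. All 9 members are named. Of each list, the called genes with the 2 smallest p in each direction could be named, and any others are named only to complete a count of 5 or fewer or were chosen after their values were seen. Alternatives were other probe set choices, a signal filter, an offset, 3 normalizations, other variance models, a 6-array fit, a replicate block, a stricter threshold and leaving out each array.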

Additional observations from a re-analysis of the deposited data

How the results depend on the processing

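The 9 differences per comparison were recomputed under 22 alternatives, which gave 591 values. Of these 557 kept their direction and their side of the threshold, 17 lost a call, 5 gained one and 12 changed sign. The members called numbered 4 to 5 for IWP2 minus vehicle, 6 to 8 for ESC minus vehicle and 5 to 7 for ESC minus IWP2. With the replicate block they numbered 5, 7 and 7, as without it. The labels do not say whether a replicate number marks a shared culture or day. Deviations of same-numbered arrays correlated at -0.060 to 0.051, and those of differently numbered arrays at -0.104 to 0.066. With 3 arrays per group these correlations cannot decide whether the samples were paired. Nefm, Stmn2 and Nes kept each call between ESCs and EpiSCs under all 22 alternatives. Sign changes concerned small values. With the mean of all probe sets ESC minus IWP2 was 0.18 for Ncam1 (still called), 0.021 for Dcx and -0.081 for Nefl. With quantile normalization repeated, Dcx was -0.067 for ESC minus vehicle and Nefl -0.0013 for ESC minus IWP2, and with cyclic loess Dcx was -0.104 for ESC minus vehicle. Leaving out single arrays gave for Dcx -0.028 to 0.27 (IWP2 minus vehicle), -0.088 to 0.21 (ESC minus vehicle) and -0.12 to 0.031 (ESC minus IWP2), for Gap43 -0.016 to 0.36 (IWP2 minus vehicle) and for Nefl -0.0023 to 0.069 (ESC minus IWP2). The cause was not tested. At an adjusted p under 0.01 the calls of Nefl with IWP2 and of Ncam1 and Gap43 for ESC minus IWP2 ended. The signal filter kept 8 of 9 members and dropped Dcx. Other normalizations moved the median of all genes by at most 0.078 in size. Signal near the array floor limits what can be seen of Dcx and of Nefm in EpiSCs.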

Other observations

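Single markers of other cell types gave values that belong to no comparison of the 9 genes. Olig1, an oligodendrocyte lineage factor, averaged 3.25 in ESCs, 8.22 in IWP2 EpiSCs and 9.32 in vehicle EpiSCs, so it was near the array floor in ESCs. It was lower in ESCs than in vehicle EpiSCs (-6.08 ± 0.147, limma adjusted p = 2.88e-10) and fell with IWP2 by 1.11 ± 0.147 (limma adjusted p = 0.000339). Ets1, used here as a neural crest marker and also known from endothelium and blood, averaged 3.48 in ESCs, 9.42 in IWP2 EpiSCs and 7.78 in vehicle EpiSCs, and rose with IWP2 by 1.64 ± 0.162 (limma adjusted p = 4.6e-05). Ttn, for the muscle protein titin, was higher in ESCs, with a mean of 6.48 against 3.003 in IWP2 EpiSCs and 3.03 in vehicle EpiSCs, both at the floor. Actc1 of the same muscle list was lower in ESCs, by -2.07 against vehicle and -0.74 against IWP2 EpiSCs. Col1a2, for a collagen of fibroblasts, averaged 5.25 in ESCs, 7.58 in IWP2 EpiSCs and 8.48 in vehicle EpiSCs. Pecam1, an endothelial adhesion molecule that ESCs are also known to carry, averaged 5.35 in ESCs and 3.09, at the floor, in both EpiSC groups.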
